A study of Homo sapiens with 4 samples.

Results

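The baseline transcriptome described here is that of U87-MG cells that carried a control hairpin, taken as the 2 control libraries of a series of 4 and as every entry with an Ensembl identifier, 19974 of the 23444 entries of the deposited tables. U87-MG is an established human glioblastoma line that grows as an adherent culture. The 2 libraries, named shCON 1 and shCON 2, are labelled as a negative control genotype; the other 2 carried a hairpin against MAGED2 and are not described. No untreated library was analysed here, so every level is that of cells that had received a hairpin vector. The series text names a stable MAGED2 knockdown with shCON as its control, whereas the treatment protocol names hairpins against ZDHHC15, a scrambled hairpin, transient transfection with Lipofectamine and harvest after 36 h; which of them applies was not resolved. Cells were grown in MEM with antibiotics. The labels do not say whether the 2 libraries came from separate cultures, so the spread given between them (SD, n = 2) may be technical.

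A baseline of this kind gives the genes a cell line transcribes, those it does not, and the levels against which any treatment acts. Glioblastomas are grouped by expression into mesenchymal, classical and proneural subtypes, which differ in matrix, receptor and neural lineage genes. The short arm of chromosome 9 holds CDKN2A and CDKN2B, inhibitors of the cyclin D kinases, beside MTAP, an enzyme of methionine salvage, and its loss is frequent in glioblastoma. A transcript table shows only RNA: a gene without reads may be deleted, methylated or simply not used in these cells, and these cannot be told apart here.

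Promoter sequences of 3 kinds recur in the results below, and examples of each are printed from RefSeq windows on GRCh38.p14, from 80 bases before to 20 bases after an annotated start. The first set shows abundant transcripts whose window holds TATAA, the letters of the TATA box, which are in capitals.
HSPA5, chr9:125241324-125241423, minus strand: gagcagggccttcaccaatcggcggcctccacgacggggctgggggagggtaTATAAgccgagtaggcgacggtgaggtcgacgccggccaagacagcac
B2M, chr15:44711437-44711536, plus strand: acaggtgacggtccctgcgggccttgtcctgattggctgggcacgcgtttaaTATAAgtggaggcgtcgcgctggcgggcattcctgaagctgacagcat
S100A6, chr1:153535972-153536071, minus strand: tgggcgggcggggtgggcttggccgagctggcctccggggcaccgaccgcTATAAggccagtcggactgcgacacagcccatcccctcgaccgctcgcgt
The second set shows ribosomal protein genes, with the run of C and T at the start in capitals. Transcripts that begin with such a run belong to the class known as terminal oligopyrimidine messages, whose translation responds to growth signals.
RPL7A, chr9:133348138-133348237, plus strand: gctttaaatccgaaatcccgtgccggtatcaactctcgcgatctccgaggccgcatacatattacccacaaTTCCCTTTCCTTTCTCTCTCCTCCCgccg
RPS3A, chr4:151099548-151099647, plus strand: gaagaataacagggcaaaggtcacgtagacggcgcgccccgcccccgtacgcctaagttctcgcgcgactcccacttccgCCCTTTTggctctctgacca
RPS12, chr6:132814489-132814588, plus strand: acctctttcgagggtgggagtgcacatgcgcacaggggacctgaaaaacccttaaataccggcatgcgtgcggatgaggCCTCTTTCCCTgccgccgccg
The third set shows genes at 0 or nearly 0 counts, with each CG dinucleotide, the site of DNA methylation, in capitals. The first 6 have between 15 (MTAP) and 45 (MGMT) CG in the full window of 300 bases, and the last, an odorant receptor gene, has 1.
MTAP, chr9:21802556-21802655, plus strand: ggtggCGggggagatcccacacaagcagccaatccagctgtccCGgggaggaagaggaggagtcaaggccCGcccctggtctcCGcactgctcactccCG
CDKN2A, chr9:21995305-21995404, minus strand: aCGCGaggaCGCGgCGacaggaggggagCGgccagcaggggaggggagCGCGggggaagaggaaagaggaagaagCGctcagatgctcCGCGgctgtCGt
KLHL9, chr9:21335385-21335484, minus strand: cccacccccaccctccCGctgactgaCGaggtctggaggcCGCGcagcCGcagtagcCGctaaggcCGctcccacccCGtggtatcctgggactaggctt
FAF1, chr1:50960248-50960347, minus strand: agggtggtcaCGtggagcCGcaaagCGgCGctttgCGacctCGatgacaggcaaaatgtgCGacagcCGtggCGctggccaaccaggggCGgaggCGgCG
ZNF569, chr19:37467425-37467524, minus strand: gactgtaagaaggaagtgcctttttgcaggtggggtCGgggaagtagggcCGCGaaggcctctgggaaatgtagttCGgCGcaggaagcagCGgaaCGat
MGMT, chr10:129467161-129467260, plus strand: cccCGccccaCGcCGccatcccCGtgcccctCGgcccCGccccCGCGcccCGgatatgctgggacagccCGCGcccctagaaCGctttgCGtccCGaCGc
OR4B1, chr11:48216730-48216829, plus strand: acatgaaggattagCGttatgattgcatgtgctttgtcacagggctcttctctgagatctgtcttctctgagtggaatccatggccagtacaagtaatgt

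The control libraries held 34235565 and 28673774 counts, so that a count of 0 allows up to 3 counts, or 0.0876 and 0.105 CPM (counts scaled to the library total), counting error only. Levels are given in FPKM, fragments per kilobase of transcript scaled to the library, as the authors deposited them. An entry is said to be expressed when it reached 1 FPKM in both libraries. By that rule 11159 of 19974 entries (55.9%) were expressed, 4877 (24.4%) had 0 counts in both, and 3938 lay in between. The mean reached 10 FPKM for 6278 entries, 100 FPKM for 521 and 1000 FPKM for 28. As a check of the labels, MAGED2 had 6090 and 5225 counts in the control libraries and 526 and 795 in those with the hairpin against it, while ZDHHC15 had 0 in all 4. The table is almost wholly of protein-coding genes (19922 entries), so that long non-coding RNAs are not described.

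The control libraries resembled each other closely. Across entries, which are not independent replicates, Pearson's r of log2(FPKM + 1) was 0.997. Among the 10714 entries with a mean of at least 5 CPM, the median absolute log2 ratio of CPM was 0.08, and 89.8% lay within 1.2-fold. The biological coefficient of variation, edgeR's estimate of the spread beyond counting error, was 0.081. Only 38 of these entries (0.355%) differed by 2-fold or more, 22 higher in library 1 and 16 in library 2. Most of them overlapped a neighbour by gene span, from start to end, which need not mean shared exons. By that measure 76.3% overlapped another entry on the same strand, against 11.0% of the other entries. On either strand 86.8% overlapped, against 36.3%. Readthrough models, which join 2 neighbouring genes, were among those with 0 counts in either library. RAB4B-EGLN2 had 588 counts in library 1 and 0 in library 2, PPAN-P2RY11 had 501 and 0, and BIVM-ERCC5 had 0 and 635. BEST1, a chloride channel gene that lies over FTH1 on the other strand, had 14409 and 580 counts. Such entries are reported as uncertain, since no source used here gives the rule for reads that genes share.

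Ferritin and the mitochondrial genome were the most abundant on the deposited FPKM scale. FTH1, the ferritin heavy chain that stores iron (chr11:61959718-61967660), stood first with 9223 and 9383 FPKM (9303 ± 113, SD, n = 2). FTL, the ferritin light chain, had rank 10 with 3038 and 2864 FPKM. VIM, the intermediate filament vimentin of mesenchymal and glial cells (chr10:17228259-17237593), had 4072 and 3937 FPKM and had rank 7. In bulk RNA, fewer cells with a transcript and less RNA per cell cannot be told apart. On the deposited FPKM, FTH1 lay above every other entry in both libraries, while VIM did not stand apart from MT-CO2, MT-CO3 and MT-ND4, whose values overlapped its own. This order rests on the lengths behind the deposited values. With FPKM rebuilt from the counts and the exon length of GENCODE 29, FTH1 had a mean of 4990 FPKM, below MT-CO1 with 7817, MT-ATP8 with 5887 and MT-ATP6 with 5804, and VIM had 1569. Over 538 named genes the rebuilt value was 0.157 to 1.50 of the deposited one, with a median of 0.796, so that the SD between libraries does not hold the whole uncertainty of a level.

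All 13 protein-coding genes of the mitochondrial genome, which encode subunits of the respiratory chain and ATP synthase, are in the table, and 11 of them were among the 30 most abundant entries. MT-CO1, of cytochrome oxidase, had 7258 and 7441 FPKM. MT-ATP8 with 5438 and 5633 FPKM and MT-ATP6 with 5472 and 5442 FPKM overlap in sequence, so reads of their shared part belong to either. Together the mitochondrial genes held 11.1% of the FPKM sum in each library but 4.01% and 3.99% of the counts of Ensembl entries (FPKM divides by transcript length). On the FPKM scale the 10 most abundant entries held 13.2% and 13.1% of the sum, the 100 most abundant 31.6% and 31.5%, and the 1000 most abundant 60.6% and 60.4%.

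**Figure D1:**
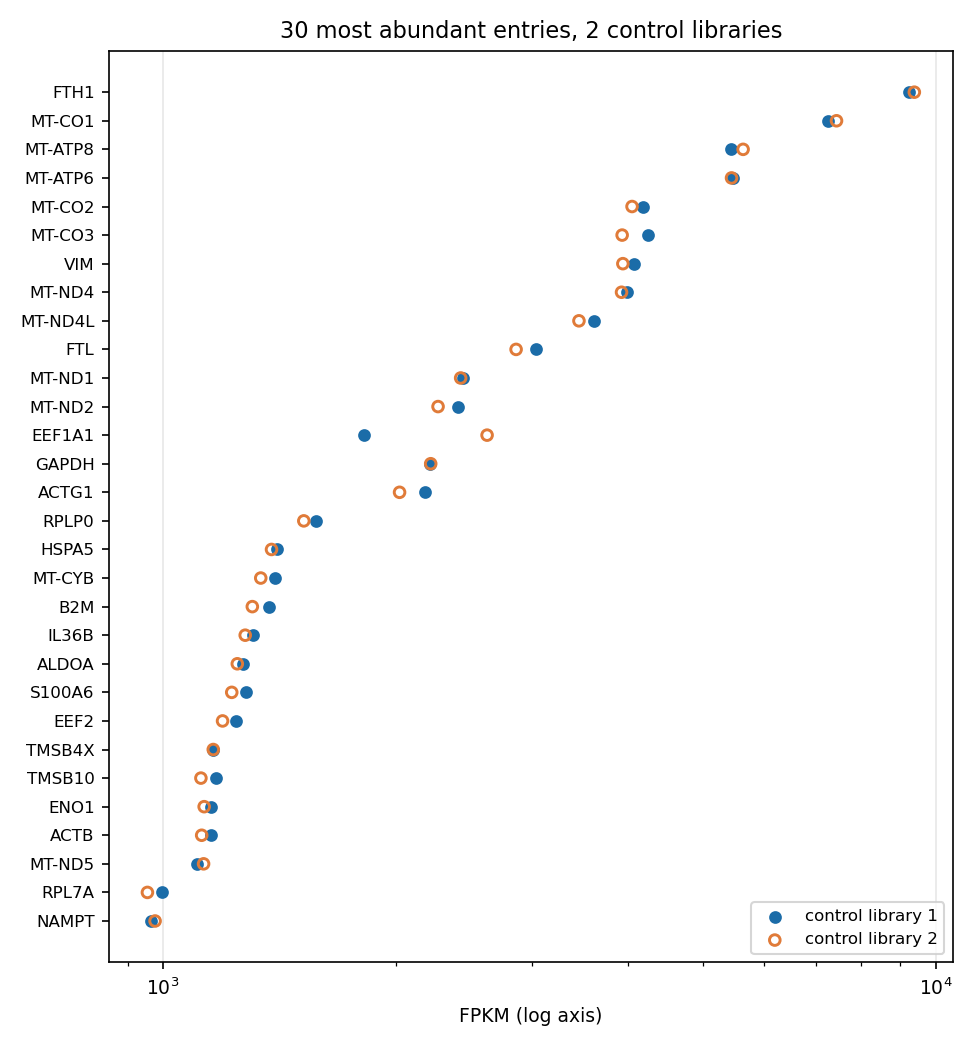
The 30 entries with the highest mean FPKM, with filled circles for control library 1 and open circles for library 2 on a log axis of FPKM. FTH1 stands first at 9223 and 9383 FPKM, and EEF1A1 is the entry whose circles lie farthest apart, at 1820 and 2627 FPKM.

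The remaining leaders were genes of translation, glycolysis, the cytoskeleton and protein folding. EEF1A1, the elongation factor that brings aminoacyl-tRNA to the ribosome, had 1820 and 2627 FPKM, although its counts of 232444 and 194225 stood in nearly the ratio of the library totals. That gap is therefore one of the FPKM values and not of the counts. EEF1A1 was not alone in this. The FPKM ratio and the CPM ratio of the libraries differed by over 1.3-fold in 167 of 10704 entries. Of the glycolytic enzymes, GAPDH reached 2213 and 2220 FPKM, ALDOA 1268 and 1248 and ENO1 1155 and 1131. The cytoskeletal genes ACTG1 (2182 and 2024 FPKM), ACTB (1153 and 1122), TMSB4X (1161 and 1162) and TMSB10 (1172 and 1120) lay in the same range. HSPA5, the main chaperone of the endoplasmic reticulum, had 1403 and 1382 FPKM. NAMPT, the enzyme that recycles nicotinamide into NAD, had 966 and 977 FPKM and was the last of the 30. All 77 cytosolic ribosomal protein entries were expressed, from 20.9 to 1549 FPKM with a median of 314, and 30 of them were among the 100 most abundant.

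IL36B, a cytokine gene, was among the 30. It encodes interleukin 36 beta, which acts in epithelial inflammation, and lies in the interleukin 1 cluster (chr2:113022091-113052867). It had 49439 and 40641 counts and 1307 and 1278 FPKM (1292 ± 20.9, SD, n = 2). Rebuilt from counts and exon length its mean was 783 FPKM, and that of B2M, which lay beside it on the deposited scale, was 229. Its neighbour IL36RN, the antagonist of the same receptor, had 248 and 255 FPKM. Further along the cluster, IL1B had 98.8 and 93.5 FPKM and IL1RN, the interleukin 1 receptor antagonist, had 26.3 and 24.2 FPKM. By contrast IL1A had 1.15 and 1.13 FPKM, IL1F10 had 1.02 and 1.08, IL37 had 0.157 and 0.217, and IL36G had 15 and 0 counts. The cluster was picked out after its values were seen. The cluster thus ran from near 0 to more than 1000 FPKM within a set of related genes, with both libraries alike for each of the high members. The part of transcripts other than the annotated messenger in the IL36B value was not tested.

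All 24 of the mesenchymal glioblastoma genes were expressed, with a median of 172 FPKM, beside 56.0% and 2.72 FPKM over all protein-coding entries. Of the classical genes 6 of 13 were expressed (median 0.916 FPKM, 2 with 0 counts), and of the proneural genes 5 of 14 (median 0.0166 FPKM, 5 with 0 counts). The classical and proneural counts differ by 1 gene, and no test between lists was made. The lists were chosen with earlier results of these data known and are given as a description.

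Within the mesenchymal list, the highest after VIM were S100A6 (1281 and 1227 FPKM), a calcium-binding protein, the annexins ANXA1 (585 and 600) and ANXA2 (591 and 575), and the galectin LGALS1 (592 and 574). CHI3L1, the secreted glycoprotein YKL-40 that is widely used as a mesenchymal marker, had 431 and 403 FPKM. CD44, the hyaluronan receptor, had 259 and 204 FPKM. Its counts, 30807 and 26001, stood in nearly the ratio of the library totals, so this gap is also one of the FPKM values. Among the transcription factors of the programme, CEBPB had 109 and 123 FPKM, BHLHE40 57.7 and 55.0, FOSL2 22.3 and 22.2, STAT3 16.8 and 15.4 and RUNX1 15.2 and 15.4. The lowest member, RELB of the NF-kB pathway, still had 13.7 and 15.7 FPKM, above the threshold in both libraries.

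The classical list was carried by AKT2 (30.5 and 28.0 FPKM) and EGFR (21.7 and 22.2 FPKM). NES, the intermediate filament of neural progenitors, stood just under the threshold with 0.835 and 0.996 FPKM, FGFR3 had 3 and 4 counts, and SMO and MEOX2 had 0. In the proneural list the adhesion molecule NCAM1 was highest, with 10.7 and 11.2 FPKM. OLIG2 had 1.94 and 2.17 FPKM, SOX2 had 4 and 0 counts and PDGFRA 5 and 0. SOX11, SOX10, NKX2-2 and DCX were among those with 0 counts in both libraries. Of the stem and progenitor genes, a list that also holds pluripotency genes, 3 of 15 were expressed, beside 55.9% of all entries. In that list 6 of 15 reached 0.5 FPKM in both libraries, beside 11789 of 19974 entries. BMI1, a polycomb protein, had 36.1 and 34.1 FPKM, while PROM1 had 0 and 4 counts and NANOG, MSI1 and L1CAM had 0.

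**Figure D2:**
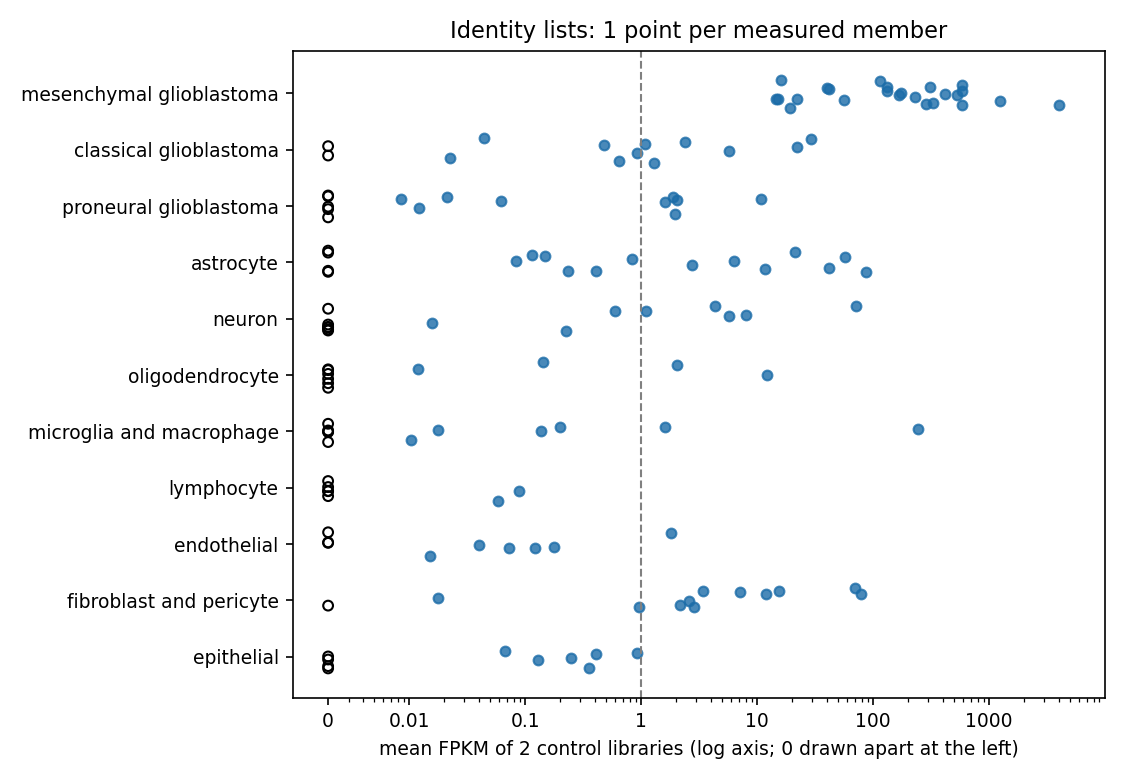
Members of 11 identity lists by their mean FPKM over the 2 control libraries (log axis), 1 point per gene, with members at 0 counts as open circles at the left and a dashed line at 1 FPKM. All 24 mesenchymal genes lie right of the line, whereas 5 of the 14 proneural genes and 6 of the 14 neuron genes sit at 0.

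The label of a glial tumour was checked against astrocyte genes, of which 7 of 17 were expressed, or 41.2%, beside 55.9% of all entries. CLU had 89.3 and 85.6 FPKM, GLUL, the glutamine synthetase of astrocytes, had 57.3 and 56.8, and the gap junction gene GJA1 had 44.1 and 39.2. GFAP, the defining astrocyte filament, had 79 and 89 counts or 0.858 and 0.817 FPKM, below the threshold in both. SOX9 had 21 and 18 counts, and AQP4, ALDH1L1, FABP7 and HEPACAM had 0. The other 4 expressed members were ALDOC (22.3 and 20.3 FPKM), APOE (12.1 and 11.6), SLC1A3, the glutamate transporter of astrocytes (6.16 and 6.45), and NFIB (2.79 and 2.77). The astrocyte list was thus mixed, with GFAP, AQP4 and ALDH1L1 at or near 0 and other members expressed.

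Genes of other cell types were mostly low, and the counts of expressed members stand beside 55.9% of all entries. Neuronal genes were expressed in 4 of 14 cases, and 6 had 0 counts. TUBB3 (73.5 and 70.0 FPKM), a tubulin that dividing tumour cells also use, was highest. It was followed by MAP2 (7.70 and 8.30 FPKM), SNAP25 (6.81 and 4.75) and GAD1 (4.44 and 4.18), while RBFOX3 had 0 and 3 counts. Of the microglia and macrophage list 2 of 11 were expressed. CD68, a lysosomal protein, had 246 and 243 FPKM, and the receptor CSF1R had 1.84 and 1.38 FPKM. AIF1, TYROBP, C1QA, C1QB and P2RY12 had 0 counts and PTPRC had 30 and 20. None of 7 lymphocyte genes and none of 10 epithelial genes was expressed, with CDH1 at 0 and CLDN4 highest at 0.875 and 0.966 FPKM. KDR, at 1.72 and 1.94 FPKM, was the only endothelial gene of 9 above the threshold, and PECAM1 had 20 and 0 counts.

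Of the fibroblast and pericyte genes 9 of 12 were expressed, beside 55.9% of all entries. At 5 FPKM in both libraries this was 5 of 12, beside 8424 of 19974 entries, so the list did not stand out there. COL1A2 had 78.9 and 77.8 FPKM, FAP, a surface protease of activated fibroblasts, 68.5 and 71.7, and ACTA2 15.5 and 15.5. THY1 had 0 and 4 counts and COL3A1 0. Of the genes of mesenchymal transition 12 of 15 were expressed, beside 55.9% of all entries. That list also holds the epithelial junction genes CDH1 and OCLN. OCLN was among the 12, with 2.00 and 1.83 FPKM, while CDH1 had 0 counts and the cadherin CDH11 3 and 4. The transcription factors SNAI2 (75.2 and 71.5 FPKM), PRRX1 (44.5 and 46.9), ZEB2 (43.02 and 41.7), TWIST1 (11.8 and 11.2) and ZEB1 (9.44 and 8.83) were well above the threshold, while SNAI1 was not, at 0.537 and 0.279 FPKM. FOSL1, an AP-1 subunit tied to mesenchymal states, had 172 and 171 FPKM and headed the AP-1 and immediate early genes. In this last list 19 of 21 were expressed, beside 55.9% of all entries. FOS itself had 3.26 and 4.43 FPKM and EGR1 13.7 and 12.5.

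Among 33 genes recurrently altered in glioblastoma, 25 were expressed (75.8%) and 5 had 0 counts (15.2%), beside 55.9% and 24.4% of all entries. IDH1, the cytosolic isocitrate dehydrogenase, had 253 and 241 FPKM. The cell cycle drivers CCND1 (153 and 159 FPKM) and CDK4 (110 and 114) lay beside CDKN1A, the inhibitor p21, at 111 and 110. CDK6 was lower, with 3.67 and 4.07 FPKM. The tumour suppressors RB1 (9.22 and 9.22 FPKM) and NF1 (17.7 and 16.4) had reads in both libraries; an RNA level does not show whether the gene is mutated. TERT, the catalytic subunit of telomerase, had 15 and 8 counts. The 5 at 0 were CDKN2A, CDKN2B and CDKN2C, which inhibit CDK4 and CDK6, together with MGMT and MYCN.

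CDKN2A lay in a run of neighbours without reads. From MLLT3 through DMRTA1, over chr9:20341665-22455740 (2.11 Mb, GENCODE 29 on hg38), 25 consecutive protein-coding entries had together 2 counts in library 1 and 2 in library 2. Both counts of library 1 fell in KLHL9 and both of library 2 in HACD4. The run holds 16 interferon genes, which many cells do not transcribe without infection. It also holds MTAP, KLHL9, a subunit of a ubiquitin ligase, FOCAD and HACD4, an enzyme of fatty acid elongation. How widely other cells use these genes was not tested. MTAP, CDKN2A and CDKN2B had 0 counts in both libraries. With 0 counts as the rule, the run around CDKN2A holds 11 entries.

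The edges of that run were read from its neighbours. On the side toward the chromosome end, SLC24A2 had 396 and 304 counts (1.08 and 0.945 FPKM), RPS6, a ribosomal protein, 354 and 344 FPKM, and DENND4C 10.1 and 11.2 FPKM. On the side of the centromere, ELAVL2 had 120 and 95 counts (0.885 and 0.835 FPKM) and TUSC1 6.63 and 5.62 FPKM. Reads therefore stopped between SLC24A2 and MLLT3 and resumed between DMRTA1 and ELAVL2. Of the 20 entries nearest to the run, 10 on each side, 9 were expressed.

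**Figure D3:**
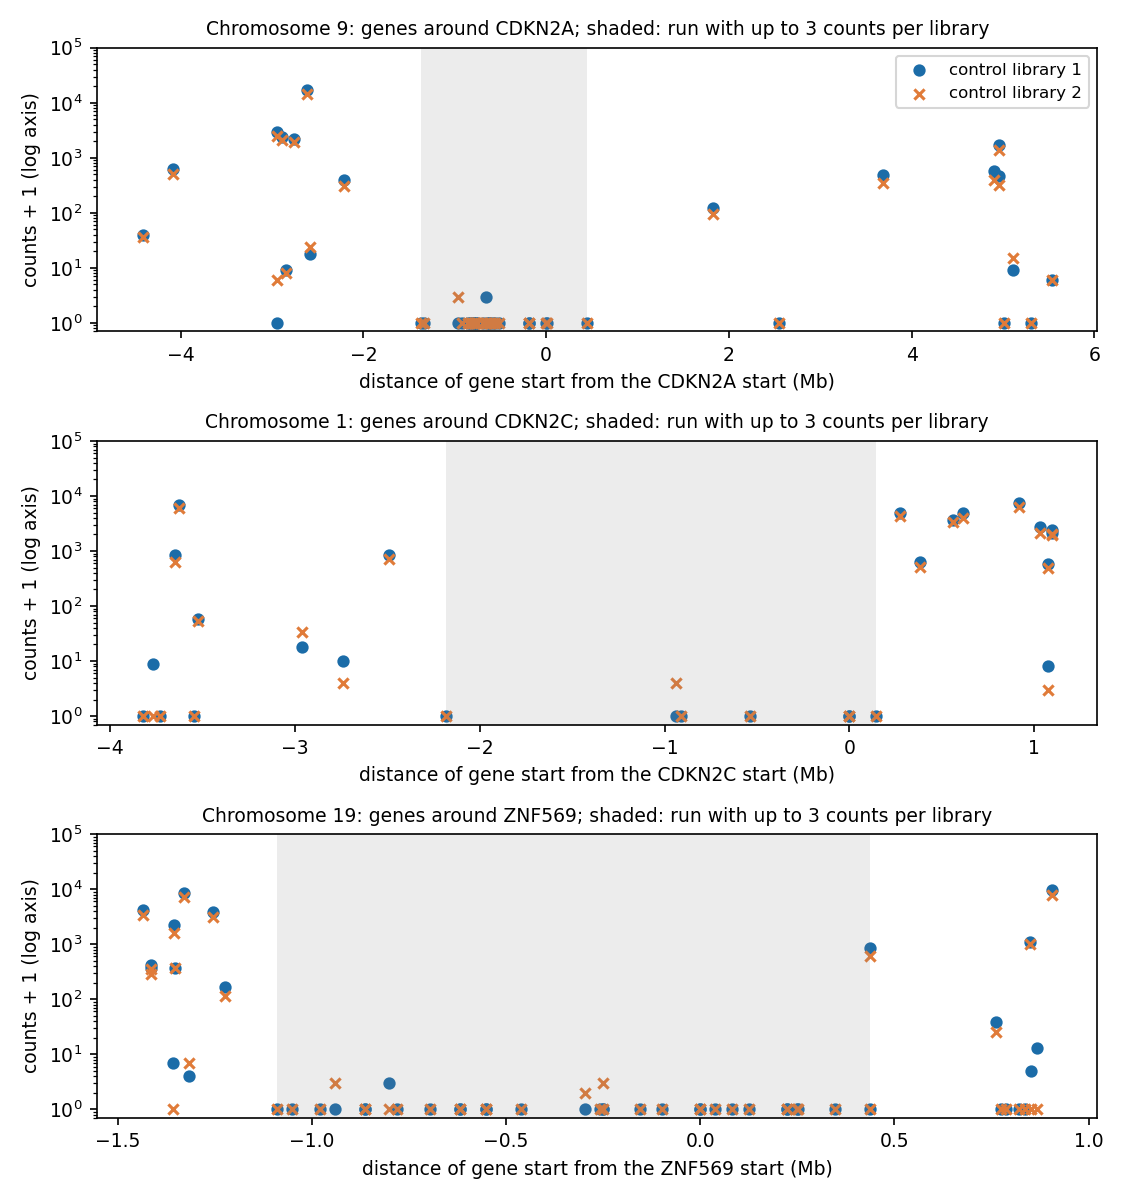
Counts + 1 (log axis) of each gene in the control libraries against the distance of its start from the start of CDKN2A, CDKN2C or ZNF569 in Mb, with circles for library 1 and crosses for library 2. The shaded runs hold 25, 7 and 31 entries with up to 3 counts per library, beside neighbours such as RNF11 with 4849 and 4349 counts.

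CDKN2C, the inhibitor p18, lay in a second such run on chromosome 1, which was singled out after its values were seen. Over chr1:48532855-51148086 (2.62 Mb), 7 entries from AGBL4 to C1orf185 had 0 counts, except for 3 counts of AGBL4 in library 2. FAF1, a cofactor of protein degradation whose start lies beside that of CDKN2C, was among them with 0 and 0. Directly beyond the run, RNF11 had 4849 and 4349 counts (44.2 and 47.2 FPKM), and before it SPATA6 had 848 and 705 counts. BEND5, ELAVL4 and DMRTA2 in the run are genes of restricted use.

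MGMT, which removes alkyl groups from guanine and protects against temozolomide, had 0 counts in both libraries (chr10:129467184-129768007). The next entry, EBF3, also had 0 counts. NPS, FOXI2 and CLRN3, farther off beyond MKI67 and PTPRE, had 0 as well. MKI67, the proliferation marker on one side, had 12.6 and 11.7 FPKM, and GLRX3, beyond C10orf143 on the other, had 78.0 and 71.9 FPKM. The stretch at 0 counts around MGMT thus spans 2 entries. Among the 2721 runs with up to 3 counts in each library it ranks 483 by number of entries, the chromosome 1 run ranks 67 and the chromosome 9 run ranks 7.

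The longest run with CG-rich promoters was on chromosome 19 and was likewise noticed after its values were seen. Over chr19:36334453-37906677 (1.57 Mb), 31 entries from ZFP14 to WDR87 had together 2 and 5 counts, and 27 of them had 0 in both. Of the 31, 28 are named as zinc finger genes, most of a family of DNA-binding repressors that arose by local duplication. All 26 with a RefSeq window had at least 16 CG dinucleotides in its 300 bases. Among the 10706 entries in genome order with such a window, 12.2% had up to 3 counts in each library, and of the 957 runs they formed 739 were of 1 gene. The chromosome 19 run of 26 was the longest, and 3 runs of 7 came next, the one around CDKN2A among them. Of the 230 other zinc finger entries of chromosome 19, 100 (43.5%) were expressed and 74 (32.2%) had 0 counts, against 55.9% and 24.4% of all entries. ZNF146, among the 10 entries before the run, had 30.7 and 31.7 FPKM, and SIPA1L3, directly after it, had 3.20 and 2.68 FPKM.

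By the stricter rule of 0 counts in both libraries, the 5 longest runs were mainly of gene families used in particular tissues. The longest run of 0 counts, 64 entries on chromosome 11 from OR4B1 to OR5AK2, is mainly of odorant receptors, and the next is of 32 keratin-associated protein genes on chromosome 21, which are used in hair. A run of 30 on chromosome 1 holds the PRAMEF family and a run of 24 on chromosome 4 the USP17L family, in both of which near-identical copies make counts uncertain. A run of 23 on chromosome 11, from GIF to MS4A10, holds the membrane proteins of leukocytes MS4A1 and MS4A2. In all, 2499 runs of 0 counts were found among 19864 entries, with a median length of 1 and 38 of at least 10.

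Receptors were sampled by family, and counts of expressed members here and below stand beside 55.9% of all entries. Of 58 receptor tyrosine kinases 22 were expressed and 21 had 0 counts (median 0.0675 FPKM). DDR2, a collagen receptor, was highest, with 62.5 and 62.9 FPKM. It was followed by MET, the receptor of hepatocyte growth factor (41.05 and 41.9 FPKM), FGFR1 (42.0 and 38.5) and AXL (35.9 and 36.7). MET and FGFR1 did not differ beyond their spread, and EGFR, at 21.7 and 22.2 FPKM, lay beside RYK at 21.96 and 20.2. Below them came PDGFRB (7.01 and 7.27 FPKM), INSR (6.92 and 6.58), ERBB2 (5.51 and 5.21) and IGF1R (3.23 and 3.47). PDGFRA had 5 and 0 counts, in contrast to PDGFRB. KIT, FLT1, FGFR2, MERTK, NTRK2 and RET were among those with 0 counts.

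**Figure D4:**
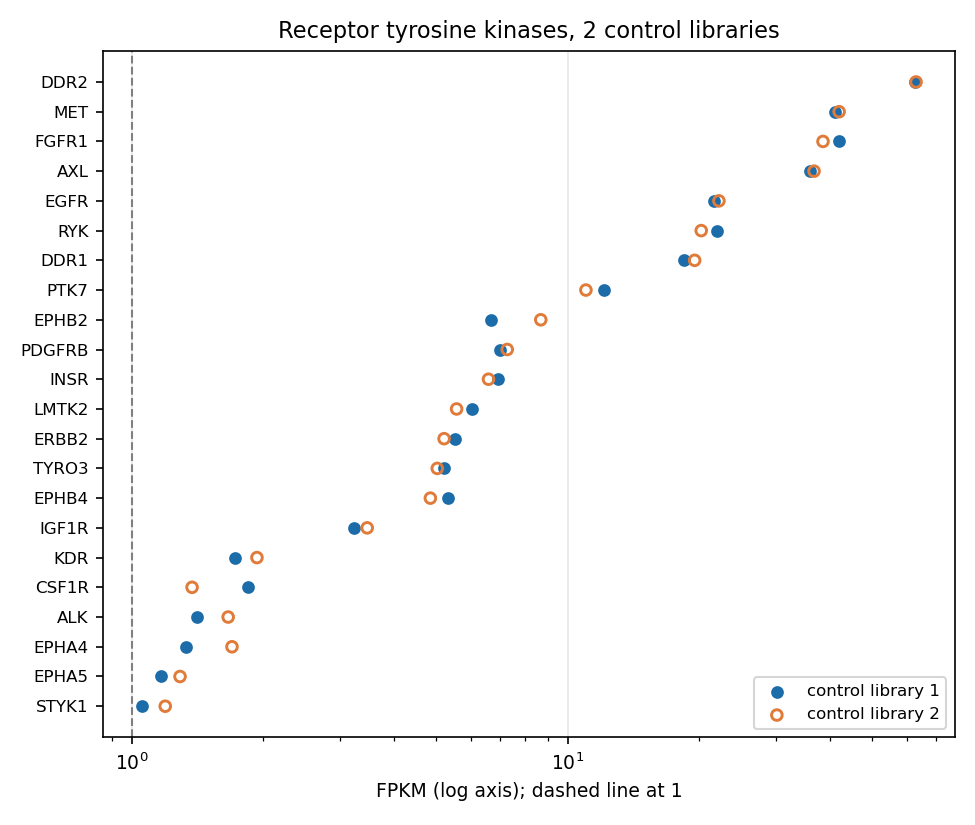
The 22 receptor tyrosine kinases at 1 FPKM or more in both control libraries, with filled circles for library 1 and open circles for library 2 (log axis of FPKM). DDR2, MET, FGFR1 and AXL stand highest, and the values of neighbours such as MET and FGFR1 overlap.

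Ligands of several of these receptors were expressed in the same libraries. In all 29 of 46 were expressed, or 63.0%, beside 55.9% of all entries. VEGFA, the main angiogenic factor, was highest, with 240 and 236 FPKM, while its receptor KDR had under 2 FPKM and FLT1 0 counts. HGF, the ligand of MET, had 16.5 and 17.6 FPKM. GAS6, a ligand of AXL and TYRO3, had 10.4 and 12.1 FPKM, and PROS1, a ligand of TYRO3, had 44.6 and 45.2 FPKM. FGF2 had 46.7 and 50.3 FPKM beside its receptor FGFR1. For EGFR, the ligand EREG had 58.2 and 58.9 FPKM and HBEGF 5.40 and 6.24, whereas AREG had 3 and 0 counts and EGF 0.309 and 0.383 FPKM. WNT5A had 48.6 and 52.5 FPKM and CSF1 47.7 and 47.1, while PDGFB, PDGFD and INS had 0 counts.

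Of 41 cytokine and TNF receptors 28 were expressed, or 68.3%, beside 55.9% of all entries. TNFRSF10B, the death receptor DR5, had 70.7 and 74.9 FPKM, whereas the related TNFRSF10A had 0.556 and 0.385. TNFRSF12A had 54.5 and 47.5 FPKM, IL6ST, the shared chain gp130, 39.1 and 39.9, and IL13RA2, a decoy receptor studied as a glioblastoma target, 22.6 and 20.4. Most TGF-beta family receptors were expressed, 11 of 14, led by TGFBR1 (36.2 and 39.7 FPKM) and ACVR1 (37.2 and 38.1). Of 58 G protein coupled receptors 28 were expressed, beside 55.9% of all entries, and none had a mean above 100 FPKM. The adhesion receptor ADGRG1 (47.7 and 47.0 FPKM) and FZD6, a Wnt receptor (26.2 and 25.4), were among the highest, while CXCR4 had 10 and 2 counts and ACKR3 0. P2RY11 overlaps a readthrough model, and its 106 and 313 counts are uncertain.

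Integrins, the receptors of the matrix, were expressed in 13 of 26 cases. ITGA3 (278 and 277 FPKM) and ITGB1 (215 and 208), which together bind laminins, were highest, and the fibronectin receptor subunit ITGA5 had 106 and 108 FPKM. ITGB3 and ITGAV, which pair as the vitronectin receptor, had 84.2 and 78.9 FPKM and 27.1 and 30.8 FPKM. ITGA6, a laminin receptor used to mark glioma stem cells, had 15 and 16 counts, and ITGA8 had 0.

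Matrix genes were expressed in 25 of 32 cases. TGFBI had 283 and 290 FPKM, COL6A2 278 and 276, fibronectin FN1 178 and 172, and tenascin TNC 130 and 137. The fibrillar collagen COL1A2 had 78.9 and 77.8 FPKM, against 12.2 and 11.9 for COL1A1, with which it forms type I collagen. The basement membrane collagen COL4A1 and the proteoglycan BGN had 0 counts, while COL4A2, whose start lies beside that of COL4A1, had 184 and 174 counts. Proteolysis genes were expressed in 23 of 28 cases. MMP2, a gelatinase of invading cells, had 663 and 642 FPKM, its activator MMP14 188 and 190, and the cathepsin CTSB 507 and 422. The CTSB counts, 52122 and 43060, stood in nearly the ratio of the library totals. TIMP1 (330 and 334 FPKM) and TIMP2 (55.1 and 54.8), inhibitors of matrix metalloproteinases, were expressed as well. The other gelatinase, MMP9, had 14 and 13 counts.

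Among 32 secreted cytokines 20 were expressed, or 62.5%, beside 55.9% of all entries. CXCL8, interleukin 8, had 255 and 269 FPKM, GDF15 230 and 226, and CSF3, the granulocyte growth factor, 142 and 138. LIF had 40.9 and 38.7 FPKM and IL6 16.5 and 17.1. TNF had 4 and 14 counts, and CXCL12 and BMP4 had 0. Antigen presentation genes were expressed in 19 of 21 cases. B2M, the light chain of class I molecules, had 1370 and 1305 FPKM, and HLA-B, a heavy chain, had 107 and 108 FPKM. The class II genes HLA-DRB1 (20.1 and 20.9 FPKM) and CD74 (15.2 and 14.7) were also above the threshold, with HLA-DRA at 1.42 and 1.19. Reads of the HLA genes depend on how alleles match the reference, and these values are uncertain.

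Of 25 surface antigens under study as therapeutic targets 21 were expressed. GPNMB had 277 and 276 FPKM, BSG (CD147) 248 and 245, NT5E, the ectonucleotidase CD73, 162 and 161, and CD276 (B7-H3) 56.7 and 52.4. CD274, the checkpoint ligand PD-L1, had 3.96 and 3.93 FPKM, and EPHA2 0.610 and 0.391. In transport and metabolism 25 of 29 were expressed. The amino acid transporter chain SLC3A2 had 245 and 234 FPKM, the serine synthesis enzyme PHGDH 102 and 97.8, and the glucose transporter SLC2A3 55.7 and 56.2 against 11.8 and 13.6 for SLC2A1. PRMT5, the arginine methyltransferase that is studied together with MTAP loss, had 20.2 and 19.3 FPKM, and MAT2A, which makes its methyl donor, 159 and 165. ABCB1, the efflux pump, had 0 counts, while ABCC1 had 12.01 and 12.1 FPKM.

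The MAGE family is split between genes used in many tissues and genes that are usually restricted to the germ line and to tumours. MAGED1 had 98.9 and 96.4 FPKM, and MAGED2, the gene of the series, had 78.5 and 82.0 FPKM (80.3 ± 2.47, SD, n = 2). MAGEF1, MAGED4, MAGED4B, NDN, MAGEH1 and NSMCE3, all of the broadly used kind, were the others expressed, from 7.30 to 21.8 FPKM in single libraries. MAGED4 and MAGED4B are near-identical copies, so their split is uncertain. Of 35 measured members 23 had 0 counts, among them MAGEA1, MAGEA3, MAGEA4, MAGEC1, CTAG1B and PRAME. MAGEA12 had 6 and 0 counts, MAGEC2 4 and 0, and SSX1, the highest of the germ line kind, 42 and 27.

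Promoter sequence went along with expression across genes. A RefSeq window of 300 bases, 250 before and 50 after a start, matched 15334 entries (76.8%), and for genes with several starts the window with the most CG dinucleotides was used. Of entries with 0 to 2 CG dinucleotides 7.33% were expressed and 66.6% had 0 counts. The share expressed was 22.6% at 6 to 10, 48.6% at 11 to 15, 64.7% at 16 to 20 and 78.9% at 41 or more. Once a gene was expressed the level differed less, with a median of 6.15 FPKM at 0 to 2 CG and 13.5 FPKM at 41 or more. The part that the number of listed starts has in these shares was not tested.

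In the chromosome 9 run, 13 interferon genes had a window, with at most 3 CG. The other 8 entries with a window had 15 to 39, among them MTAP with 15, KLHL9 with 19, CDKN2B with 25, CDKN2A with 28 and FOCAD with 39. The 55 entries with a window in the longest run of 0 counts, mostly odorant receptors, had a median of 1 CG and at most 5. The 2 runs were alike in counts and differed in CG content, as the printed windows of CDKN2A and OR4B1 show.

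**Figure D5:**
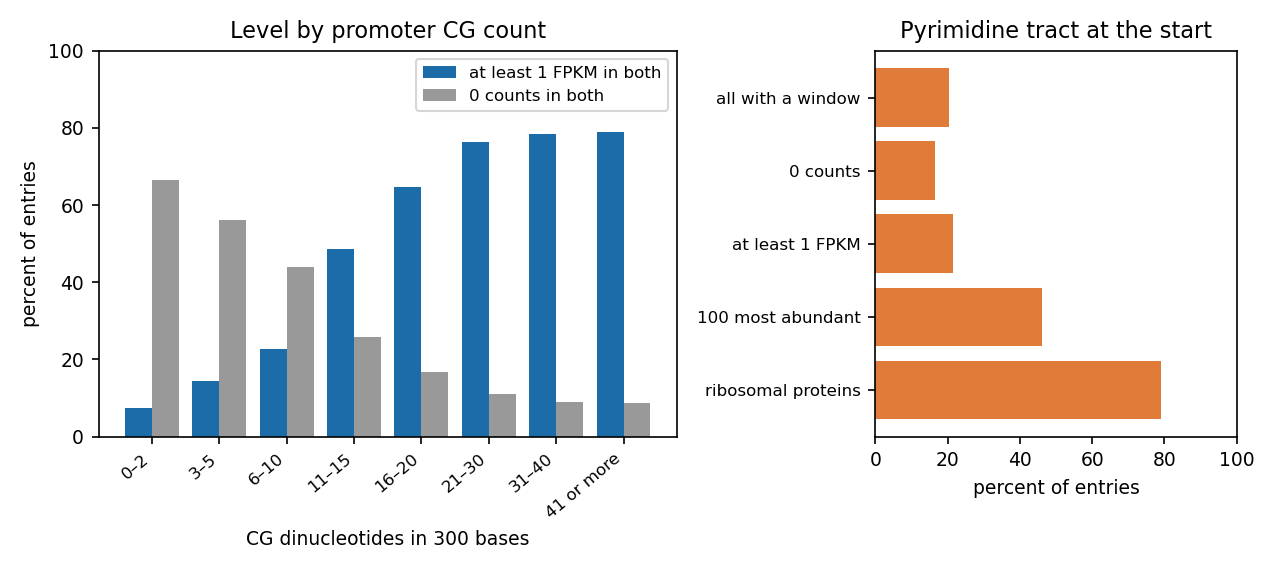
Left, the percent of entries expressed (blue) and with 0 counts in both control libraries (grey) by the number of CG dinucleotides in the promoter window; right, the percent of entries with a pyrimidine tract at the start. The expressed share goes from 7.33% to 78.9%, and the tract is found in 79.0% of ribosomal protein entries against 20.3% of all.

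Letters at the start differed by level as well. The motif TATAA, on the strand of the gene and beginning 40 to 20 bases before the start, was found in 24 of the 100 most abundant entries with a window and in 3.67% of expressed entries. It was found in 13.02% of entries with 0 counts and 6.82% of all with a window, and in 3.91% of all listed windows. The longer TATAAA gave 9 of 100, 2.05%, 8.54% and 4.25%. The motif was thus commonest among the most abundant genes and among the silent ones. A tract was at least 6 bases that are each C or T, covering the start or a base next to it. It was found in 49 of 62 ribosomal protein entries with a window (79.0%) and in 46.0% of the 100 most abundant. These shares are not separate, since ribosomal protein entries are also among the most abundant. The tract was found in 21.6% of expressed entries, 16.4% of those with 0 counts and 20.3% of all with a window. All listed windows held it in a smaller share, 14.996%. A match to these letters is a description of the window, not a site, and windows of any listed start were counted.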

How the data were processed

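Members and gene lists were chosen with earlier results of these data known. RNA of U87-MG cells was sequenced from NEBNext Ultra libraries, per the labels' protocols, after a lithium chloride step that discards small RNA. The authors deposited raw counts, one whole number for each gene in each library. The submitters' processing notes name HISAT2, StringTie, SAMtools and hg38, without versions or roles. The FPKM table holds the authors' deposited FPKM values. No source used here gives the gene lengths behind them, the annotation, the strand setting or the rule for multiply matching reads. Over 11045 entries with more than 100 counts in both libraries, the length implied by count and FPKM had a median of 0.683 of the exon length in GENCODE 29 in library 1, so rebuilt FPKM differ from the deposited ones.

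Columns were mapped to samples by their descriptions. The 19974 Ensembl identifiers were placed by GENCODE 29, with 1-based coordinates. Entries that share a symbol were represented by the entry with more counts. CPM uses the total of all entries. No test was made, since 1 group is described. The biological coefficient of variation came from edgeR 4.0.16 in R 4.3.3 (TMM factors 0.999 and 1.00, filterByExpr, intercept only, 12859 genes) and was checked on simulated counts with known spread, as was the search for runs. Runs are consecutive protein-coding entries by start, without the Y chromosome and the mitochondrial genome. RefSeq windows (35116, GRCh38.p14) were matched by symbol or current symbol.

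Genes were named by rule: the 30 most abundant, members of 30 lists (for lists over 40 members the 15 highest), the chromosome 9 run and its flanks, the 5 longest runs, and up to 5 per direction that differed most between the libraries. Others, such as the chromosome 1 and 19 runs, the interleukin 1 cluster, genes at 0 counts in the longer lists and ligands and receptors set beside each other, were named after their values were seen. TATAA, the CG threshold and the tract definition were also chosen then. Alternatives were rebuilt FPKM, TPM, thresholds of 0.5 and 5 FPKM, each library alone, all entries, up to 3 counts as silent, shares of counts, no mitochondrial genes, another pseudocount, no filter, and library totals. A few list members are counted in their lists and not reported here by name.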

Additional observations from a re-analysis of the deposited data

Results flagged for a closer look

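Entries of the tables without an Ensembl identifier, models named as new genes that the results above do not use, drew reads in both control libraries. They are 3470 in number and held 2.27% of the counts in library 1 and 2.19% in library 2, 2.23% on average. Of these, 917 reached 1 FPKM in both libraries and 410 had 0 counts in both. The highest had 403 and 211 FPKM, from 33159 and 14608 counts, and so differed between the libraries by more than their totals did. No coordinates of these models were used here, and what they are was not tested.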

How the results depend on the processing

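The number of expressed entries was 11159 and ran from 8424 at 5 FPKM to 12076 over all entries under the alternatives tried, and all 24 mesenchymal genes were expressed under each alternative run on that list. The most abundant 10, 100 and 1000 entries held 13.1%, 31.6% and 60.5% of FPKM on average. As shares of counts these were 6.66%, 20.01% and 49.8%, with FPKM rebuilt from counts and exon length 18.7%, 35.6% and 61.4%, over all entries 12.9%, 31.04% and 59.7%, and without mitochondrial genes 8.35%, 24.4% and 55.8%. The mitochondrial share of 11.1% was 4.00% of counts, 18.04% of rebuilt FPKM and 10.9% over all entries. Without a filter the biological coefficient of variation was 0.104. The run around CDKN2A held 11 entries at 0 counts, 25 at up to 3 counts, and 11 to 22 when either library was left out, the higher value without library 1. At 5 FPKM, 59.3% of entries with a CG-rich promoter were expressed, against 75.9%, and 3 classical and 1 proneural genes. At 5 FPKM the count of expressed members moved by more than 1.5 times in 14 of 30 lists, and at 0.5 FPKM and in TPM in 2. Rebuilt FPKM moved 379 of 661 single-gene values by more than their SD; FTH1 was 4990, IL36B 783 and GFAP 0.229 FPKM. TMM scaling and the correlation restricted to entries of at least 5 CPM were added after seeing the data. Depth limits entries at 0 counts to under 3 counts per library. No paired analysis was possible because the results come from no test between groups.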
